A study of Mus musculus with 45 samples.

Results

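Aged mouse oocytes held in aged follicles were compared with young oocytes cultured in vitro, gene by gene. The comparison took the 12 libraries of the reconstituted chimeric follicle group AA and the 8 libraries of the group in vitro young, which together are 20 of the 45 single-oocyte RNA libraries of the series. Members were taken by their group label alone, and every difference is the AA level minus the in vitro young level on a log2 scale, on which a value of 1 is a 2-fold difference. The young reference here uses none of the libraries of young oocytes in young reconstituted follicles (YY).

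The study rebuilt mouse follicles from an oocyte and somatic cells of chosen ages. AA oocytes were aged oocytes combined with aged somatic cells, and in vitro young oocytes were young and cultured, with no reconstitution named on the label. The other groups, used here only as levels set side by side, were aged oocytes in young somatic cells (AY, 6 libraries), young oocytes in young somatic cells (YY, 11 libraries) and young oocytes taken without culture (in vivo young, 8 libraries). Strain, genotype, the animals' ages, the length of culture and the meiotic stage are not given in the sources used here. AA and in vitro young therefore differ in oocyte age, in the age of the somatic cells and in reconstitution. Their library numbers do not overlap either (S268 to S279 in AA, S128 to S165 in in vitro young). The effects of all these cannot be told apart. Every oocyte is labelled a biological replicate and no animal is named, so each p-value reflects spread between oocytes alone, which may be technical.

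A fully grown oocyte is nearly silent in transcription and lives on RNA stored during its growth. Its stock of messengers supports meiosis, fertilisation and the start of embryo development, and it is maintained through contact with the surrounding granulosa cells, which feed the oocyte through gap junctions. With age, oocytes are known to lose quality, with more errors in chromosome segregation and changes in mitochondria and chromatin.

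The AA libraries held a mean of 833900 counts (503354 to 1335807) and the in vitro young libraries 1169000 (900194 to 1527370). AA libraries showed counts for 13203 to 15309 genes, against 14894 to 16137 in in vitro young, so depth and the number of genes detected moved with the group. All 14 oocyte markers had counts in all 20 libraries. Of them, 5 (Bmp15, Dazl, Gdf9, Padi6 and Zp3) were lower in AA and none higher, with a median log2 change of -0.26. The lower share was 35.7%, beside 11.6% of all tested genes. The 5 lower markers became 1 with detected genes as a covariate and 0 with libraries summed by the patterns described below. With in vitro young replicates 1 to 4 alone 1 was lower, and with replicates 5 to 8 alone 6 were. The sum of the 14 oocyte markers before scaling was 20700, 22600 and 28800 CPM in AA and 23900, 30900 and 32400 CPM in in vitro young (lowest, median, highest). A set of 11 genes was either present at a high level or absent in single oocytes, and it sorted the 12 AA libraries into 2 patterns (9 and 3 libraries) and the 8 in vitro young libraries into 4 other patterns (4, 2, 1 and 1 libraries). One of the 11 genes, Gm17830, was present in 0 of 12 AA and 8 of 8 in vitro young libraries, so no pattern could occur in both groups. What the patterns stand for was not tested.

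Of 7943 genes tested, 768 were higher in AA (9.67% of the tested genes) and 919 were lower (11.6%), so 1687 in all (21.2%) were called by the edgeR quasi-likelihood test with a Benjamini-Hochberg adjusted p under 0.05. The changes were mostly small. Among called genes, 32 were at least 2-fold higher (0.403%) and 118 were at least 2-fold lower (1.49%). All 12 AA oocytes lay above all 8 in vitro young oocytes for 42 genes (0.529%) and below them for 55 genes (0.692%). The median log2 change over all tested genes was 0.01. When the libraries of each pattern were summed, 2 AA sums stood against 4 in vitro young sums. There 5 genes were higher (Cdc34b, Rpl29, Inha, Zfp951 and Gm7919) and 9 lower, among them Gm17830, which had helped to define the patterns. All 1687 genes kept their direction, but the sums hold the same counts. That outcome was largely fixed in advance and adds no support. With detected genes as a covariate, 210 were higher and 296 lower.

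**Figure D1:**
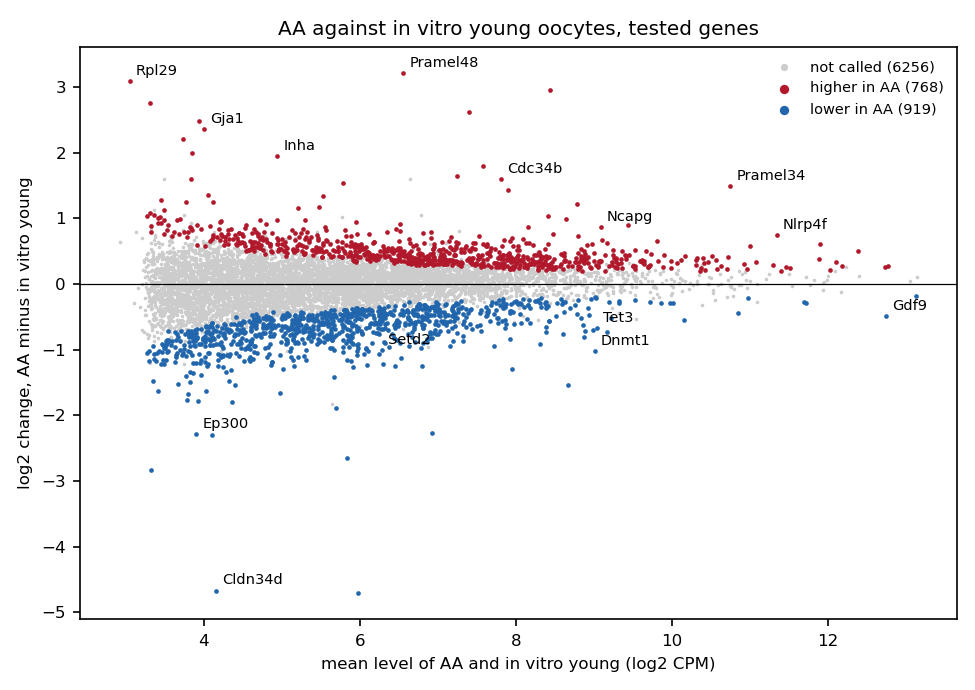
Each point is 1 of the 7943 tested genes, with the mean level of both groups (log2 CPM) on the x axis and the log2 change, AA minus in vitro young, on the y axis; red points were called higher in AA (768), blue points lower (919). Most called genes lie within 1 log2 unit of zero, with Pramel48, Rpl29 and Cldn34d among the genes farthest from it.

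Chromatin regulators formed the list with the most members lower in AA. Of 48 tested genes of chromatin and DNA methylation, 23 fell and 2 rose (47.9% and 4.17%, beside 11.6% and 9.67% of all tested genes). The median log2 change was -0.33 beside 0.01 for all tested genes. The falling members cover DNA methylation, histone methylation, histone deacetylation and nucleosome remodelling.

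Dnmt1, the maintenance DNA methyltransferase (chromosome 9, 20818505 to 20871185, mm39), stood at 255, 310 and 470 CPM (counts scaled to library size; lowest, median and highest) in AA and at 579, 700 and 805 CPM in in vitro young. No AA oocyte reached the lowest in vitro young oocyte. The level of Dnmt1 fell by 1.03 ± 0.10 (SE) on the log2 scale (edgeR adjusted p = 3.78e-08). Setd2, a histone methyltransferase that acts on transcribed genes, gave 29.4, 53.4 and 72.2 CPM in AA and 90.9, 102 and 119 CPM in in vitro young. It also showed no overlap, and it fell by 1.01 ± 0.13 (edgeR adjusted p = 1.88e-06). Ep300, a histone acetyltransferase that is not in the list but was named by its p, was a low-level transcript with 1.28, 4.68 and 11.0 CPM in AA against 15.3, 24.1 and 37.2 CPM in in vitro young. Its groups were separate as well, and it fell by 2.29 ± 0.27 (edgeR adjusted p = 3.42e-07). Ep300 could pass the filter on low counts only through in vitro young.

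Dnmt1, Setd2 and Ep300 also passed when libraries were added up by pattern, and they were among the 14 genes called there. Other falling members of the list, chosen after their values were seen, were Tet3, the oxidase of methylcytosine (412 CPM median in AA against 604, a log2 change of -0.68), and Uhrf1, the partner that guides Dnmt1 to newly copied DNA (136 against 213 CPM, -0.64). Dnmt3a, the de novo DNA methyltransferase, changed by -0.34, and Baz1b, a subunit of chromatin remodellers, by -0.98. The rising members were Zfp57, a zinc finger protein that keeps imprints methylated (0.26 ± 0.06), and Eed, a Polycomb subunit (0.22 ± 0.08). The Eed call was lost under 22 of 38 alternatives, 10 of which left out a single library, with a log2 change of 0.14 to 0.36 over all of them. The 23 falling members became 12 with detected genes as a covariate, and 2 with libraries summed by pattern. They became 17 after a correction for transcript length and GC content.

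Dnmt1 has several annotated starts, among them one used in oocytes, but the counts are per gene and cannot tell starts apart. Of its windows of 250 bases before to 50 bases after a RefSeq start (GRCm38.p6, minus strand), the farthest upstream and the nearest to the gene body are shown, since Dnmt1 had the smallest p of the chromatin list. Capitals mark matches, on either strand, to any of several short promoter motifs, and matches may overlap. The motif bound by the factor NF-Y was searched as CCAAT. The motif bound by Sp factors was searched as GGGCGG. The box near many start sites was searched as TATAAA. The core bound by homeodomain proteins was searched as TAATTG.
Dnmt1, upstream start, chr9:20959839-20960138: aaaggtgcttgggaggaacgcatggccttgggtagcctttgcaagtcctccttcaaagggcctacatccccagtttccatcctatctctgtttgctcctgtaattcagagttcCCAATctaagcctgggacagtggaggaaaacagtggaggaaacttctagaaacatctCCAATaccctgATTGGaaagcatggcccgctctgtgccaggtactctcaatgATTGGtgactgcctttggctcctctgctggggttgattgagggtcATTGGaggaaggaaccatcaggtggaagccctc
Dnmt1, downstream start, chr9:20952574-20952873: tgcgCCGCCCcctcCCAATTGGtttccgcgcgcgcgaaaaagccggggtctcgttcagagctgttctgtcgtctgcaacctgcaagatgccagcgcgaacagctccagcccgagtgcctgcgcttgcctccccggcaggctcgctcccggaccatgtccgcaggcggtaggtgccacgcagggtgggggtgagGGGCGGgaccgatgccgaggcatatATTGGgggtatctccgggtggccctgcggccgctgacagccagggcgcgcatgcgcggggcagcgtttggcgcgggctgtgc
The upstream window held 5 CCAAT matches and no GGGCGG match, with a GC content of 51.3%. The downstream window held 3 CCAAT and 2 GGGCGG matches, with a GC content of 69.7%. A window between them (chr9:20952930-20953229), not shown, held no match to any of these motifs, with a GC content of 57.0%. Among all 32851 promoter windows of the table, 37.4% held CCAAT, 35.7% held GGGCGG, 13.6% held TATAAA and 8.0% held TAATTG. Windows with CCAAT made up 42.1% of those of genes higher in AA, 37.8% of those lower in AA and 39.4% of those tested. Windows with GGGCGG made up 56.7%, 69.2% and 60.7% of the same sets. A match is a description of these letters only.

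**Figure D2:**
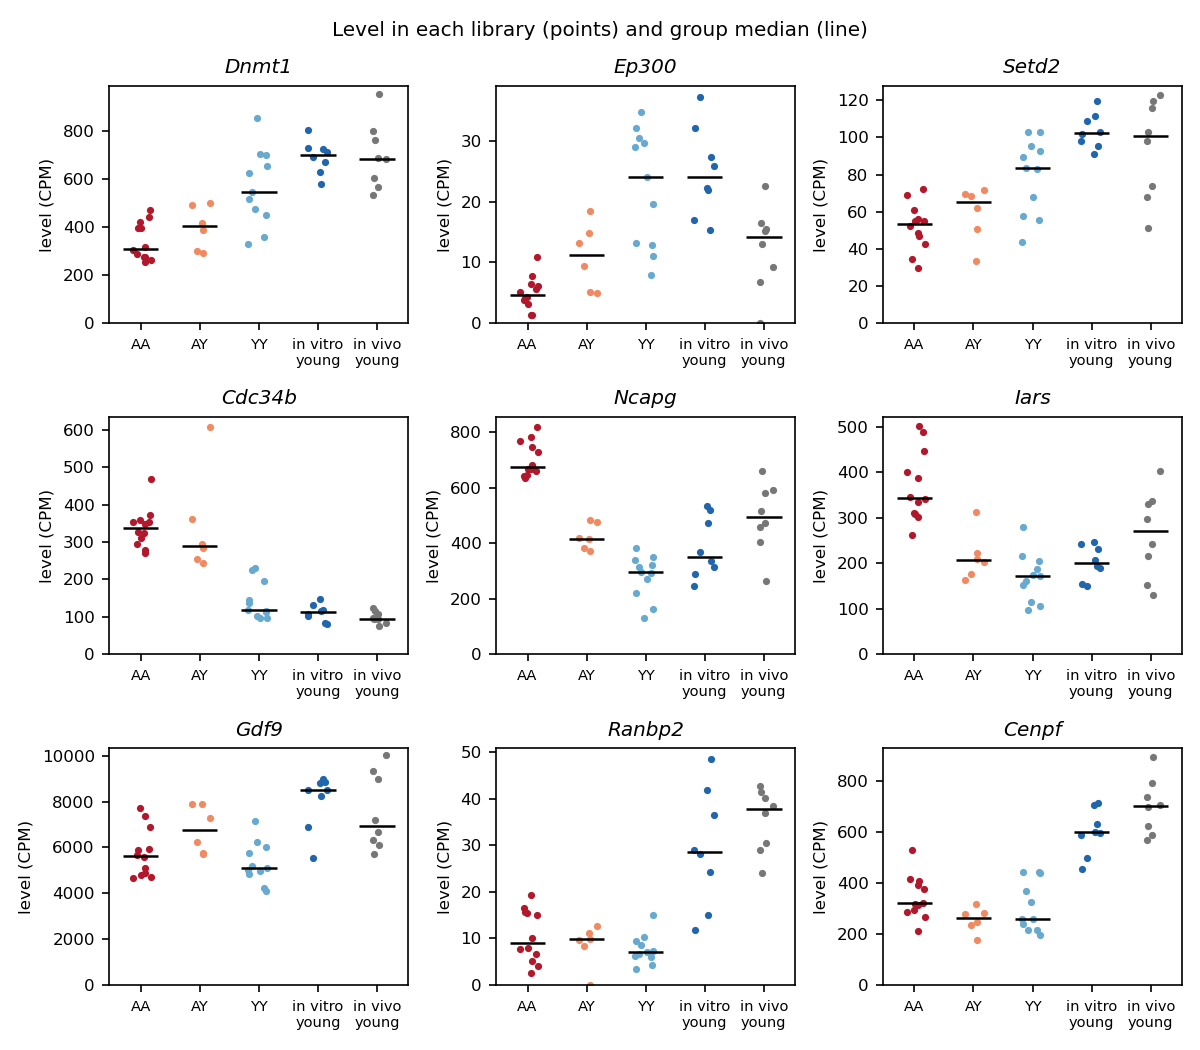
Level in CPM (y axis) of 9 genes in every library (points), by group (x axis), with the group median as a line. For Dnmt1, Ep300 and Setd2 every AA point lies below every in vitro young point, for Cdc34b and Ncapg above; for Ranbp2, Cenpf and Gdf9 the YY median lies below the AA median.

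Regulators of stored messenger translation were more often lower than higher. Of 30 tested members, 12 fell and 2 rose (40% and 6.67%, beside 11.6% and 9.67% of all tested genes). The median log2 change was -0.31. Mtor, the kinase that couples growth signals to translation, gave 8.07, 19.1 and 25.2 CPM in AA and 32.2, 38.3 and 45.8 CPM in in vitro young. The groups did not overlap and Mtor fell by 1.07 ± 0.18 (edgeR adjusted p = 4.73e-05). Dazl, an RNA-binding protein that activates translation in maturing oocytes, gave 369, 475 and 641 CPM in AA and 578, 662 and 973 CPM in in vitro young. These groups overlapped at their edges, and Dazl fell by 0.52 ± 0.09 (edgeR adjusted p = 0.000149). Eif4g1, the scaffold of the cap-binding complex, picked out once its values were known, fell by 1.39 ± 0.26 from a median of 22.0 to 8.29 CPM. Other members that fell were Eif4g3, Cpeb3, Cpeb4, Ybx2, Lsm14a, Lsm14b, Nanos1, Pum2 and Igf2bp2. Eif4e, the cap-binding protein itself, was called higher at 0.20 ± 0.07, a call lost under 26 of 38 alternatives (0.14 to 0.26), 14 of which left out a single library. Papolg, a poly(A) polymerase, was called higher at 0.32 ± 0.10, and this was lost under 11 of 38, among them those without in vitro young replicate 8 (0.28) or AA replicate 7 (0.28). The 12 falling members became 7 with detected genes as a covariate and 0 with libraries summed by pattern.

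Genes of oocyte-somatic communication and adhesion fell in 8 of 24 tested members and rose in 1 (33.3% and 4.17%). Beside these stand 11.6% and 9.67% of all tested genes, and the median log2 change of the list was -0.34. Jag1, a Notch ligand on the oocyte surface, gave 300, 351 and 467 CPM in AA and 474, 586 and 683 CPM in in vitro young. The groups were separate, and Jag1 fell by 0.72 ± 0.09 (edgeR adjusted p = 5.15e-07). Tjp1, a tight junction scaffold, stood at 10.2, 23.4 and 34.5 CPM against 34.4, 38.9 and 63.4 CPM. It fell by 0.91 ± 0.19, with overlap only at the edge. The other falling members were the cadherins Cdh1 and Cdh2, the catenins Ctnnb1 and Ctnnd1, Rictor and Foxo1, and the member called higher was the polarity protein Pard3 (0.32 ± 0.11). The Pard3 call was lost under 19 of 38 alternatives, 10 of which left out a single library, and its log2 change was 0.15 with in vitro young replicates 5 to 8 alone. The 8 falling members became 5 with detected genes as a covariate and 0 with libraries summed by pattern.

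Among 13 tested zona and secreted factors, 5 fell and 1 rose (38.5% and 7.69%, beside 11.6% and 9.67% of all tested genes). The median log2 change was -0.27. Gdf9, the oocyte growth factor that acts on granulosa cells, gave 4654, 5634 and 7703 CPM in AA and 5557, 8494 and 8963 CPM in in vitro young. The ranges overlapped, and Gdf9 fell by 0.49 ± 0.10 (edgeR adjusted p = 0.000986). Cd9, the tetraspanin needed for sperm fusion, fell by 0.67 ± 0.18 from a median of 267 to 182 CPM. Zp3, Bmp15 and Oosp2 were the other falling members. Gdf9, Zp3 and Bmp15 were also counted among the lower oocyte markers above, so the 2 counts are not separate. Fgf8, which acts on cumulus cells, was called higher at 0.32 ± 0.11, a direction that turned to -0.04 with detected genes as a covariate, and its call was lost under 17 of 38 alternatives. With in vitro young replicates 1 to 4 alone as the reference, 1 of these members was lower, and with replicates 5 to 8 alone, 6 were. None was called with detected genes as a covariate, where the log2 change of Gdf9 was -0.19 (edgeR adjusted p = 0.428), or with libraries summed by pattern.

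The genes with the smallest p among those at least 2-fold lower included a glycosyltransferase, a centrosomal protein and a scaffold of the replication checkpoint. Gxylt1, a glycosyltransferase of Notch repeats, gave 19.8, 28.8 and 39.7 CPM in AA and 56.9, 77.2 and 91.3 CPM in in vitro young, with no overlap, and fell by 1.42 ± 0.15 (edgeR adjusted p = 3.52e-08). Cldn34d, a claudin-like gene on chromosome X (75626216 to 75646531, mm39), was at 0 in 8 of 12 AA libraries and reached 6.44 CPM at most, while in vitro young held 12.98 to 63.3 CPM. Its fitted log2 change was -4.67 ± 0.45 (edgeR adjusted p = 3.52e-08), and this size rests on zeros. Cldn34d could pass the filter on low counts only through in vitro young. Srrm2, a large protein of nuclear speckles, gave 15.4, 35.1 and 57.6 CPM against 64.0, 81.4 and 107 CPM, with no overlap, and fell by 1.18 ± 0.17 (edgeR adjusted p = 7.15e-06). Topbp1, the checkpoint scaffold, fell by 1.26 ± 0.17. Tacc2, a centrosomal protein, fell by 1.06 ± 0.15, Golgb1, a Golgi tether, by 1.02 ± 0.13, and Dcbld2, a membrane receptor, by 1.54 ± 0.20. Akap12, a kinase anchor, fell by 1.12 ± 0.15 and was the exception among the 12 leading lower genes, since its groups overlapped (39.6 to 105 against 75.1 to 167 CPM). Mki67, the proliferation marker, chosen after its values were seen, gave 55.1 to 88.7 CPM in AA and 110 to 151 CPM in in vitro young, and fell by 0.95 ± 0.11.

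Cdc34b, a ubiquitin-conjugating enzyme (chromosome 11, 94632608 to 94633860, mm39), had the smallest p of all genes. It gave 270.5, 338 and 468 CPM in AA and 80.7, 111 and 148.2 CPM in in vitro young. The groups were far from touching, and Cdc34b rose by 1.60 ± 0.11 (edgeR adjusted p = 3.1e-13). It was also called with libraries summed by pattern, and its log2 change stayed between 1.39 and 1.66 under 38 alternatives. Cdc34b resembles its relative Cdc34 in sequence, so how reads were split between them is uncertain. Rpl29, a ribosomal protein with many processed copies in the genome, gave 6.85 to 24.2 CPM in AA and 0 to 5.37 CPM in in vitro young, and rose by 3.09 ± 0.40 (edgeR adjusted p = 1.88e-06). Reads of such copies are uncertain too, and Rpl29 could pass the filter on low counts only through AA. Of 55 tested cytosolic ribosomal proteins, 4 rose, Rpl29 among them (7.27%, beside 9.67% of all tested genes), and none fell, with a median of -0.02.

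Many of the other leading higher genes were low in level. Bbs2, a subunit of the ciliary BBSome, gave 7.89, 17.5 and 30.1 CPM in AA and 0, 1.54 and 7.54 CPM in in vitro young, without overlap, and rose by 2.75 ± 0.40 (edgeR adjusted p = 9.38e-06). Mipep, a mitochondrial peptidase, gave 495, 573 and 791 CPM in AA and 154, 259 and 388 CPM in in vitro young, also without overlap, and rose by 1.22 ± 0.17 (edgeR adjusted p = 4.09e-05). Within in vitro young, Mipep averaged 182 CPM in the pattern of 4 libraries and 312 to 388 CPM in the other patterns, all below AA. Slc4a3, an anion exchanger, rose by 2.47 ± 0.47, Rubcnl, an autophagy regulator, by 1.99 ± 0.38 and Nap1l5, an imprinted relative of nucleosome assembly proteins, by 1.60 ± 0.35. Ethe1, a mitochondrial sulfur dioxygenase, rose by 1.25 ± 0.27, and Gdpd3, a lysophospholipase, by 1.36 ± 0.29. Of the 12 leading higher genes the groups did not overlap in 5, and of the 12 leading lower genes in 11. Over all tested genes these shares were 0.529% and 0.692%. The leading genes were picked by p and fold in the same data, which favours groups that do not overlap. Rpl29, Bbs2, Ep300 and Cldn34d, which are among them, could be tested only through the group where they were high.

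Kinetochore and checkpoint genes rose more often than they fell, in 11 against 4 of 43 tested members. These were 25.6% and 9.3%, beside 9.67% and 11.6% of all tested genes, and the median log2 change was 0.11. Cenpo, a protein of the inner kinetochore, gave 168, 228.8 and 284 CPM in AA and 123, 147 and 173 CPM in in vitro young. The ranges overlapped, and Cenpo rose by 0.61 ± 0.10 (edgeR adjusted p = 2.64e-05). Cdca8, the borealin subunit of the chromosomal passenger complex, gave 489 to 589 CPM against 378 to 468 CPM, did not overlap and rose by 0.38 ± 0.07 (edgeR adjusted p = 0.000111). The checkpoint kinases Ttk and Bub1b and the outer kinetochore members Nuf2 and Dsn1 were among the others that rose. Cenpf, a large protein of the outer kinetochore, fell by 0.80 ± 0.12, and Cenpk by 0.83 ± 0.15. Cenpe, a kinetochore motor, and Knl1, a scaffold, were the other falling members. The 11 rising members became 5 with detected genes as a covariate and 0 with libraries summed by pattern.

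Ncapg, a subunit of condensin I, rose while another member of the condensin list fell. Ncapg gave 637, 676 and 821 CPM in AA and 245, 351 and 533 CPM in in vitro young. The groups were separate, and Ncapg rose by 0.86 ± 0.11 (edgeR adjusted p = 5.34e-06). Smc2, the ATPase shared by both condensins, fell by 0.65 ± 0.16, and the remaining 5 of 7 tested condensin genes were not called.

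All 8 called tRNA synthetase and tRNA modification genes, of 25 tested, were higher in AA (32%, beside 9.67% of all tested genes). The median log2 change of the list was 0.24. Iars, the isoleucine tRNA synthetase, gave 261, 343 and 502 CPM in AA and 148.9, 200 and 247 CPM in in vitro young. The groups did not overlap, and Iars rose by 0.86 ± 0.12 (edgeR adjusted p = 6.47e-06). Qars, the glutamine enzyme, rose by 0.54 ± 0.09 with overlapping ranges. Thg1l, a tRNA-histidine guanylyltransferase picked once its values were known, rose by 1.16 ± 0.26. The count of 8 became 3 with the 9 AA libraries of the larger pattern, 2 with in vitro young replicates 5 to 8 alone, 4 with the replicate block, 5 with detected genes as a covariate and 0 with libraries summed by pattern.

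Genes of central metabolism and of the proteasome were more often higher than lower. Of 36 tested genes of glycolysis and the citric acid cycle, 8 rose and 1 fell (22.2% and 2.78%), with a median of 0.21. Among all tested genes, 9.67% were higher and 11.6% lower. Sucla2, a subunit of succinyl-CoA ligase, rose by 0.41 ± 0.09 from a median of 185 to 257 CPM, and Mdh2, mitochondrial malate dehydrogenase, by 0.30 ± 0.08 from 296 to 364 CPM. Pdha1, a subunit of pyruvate dehydrogenase, was called lower at -0.43 ± 0.15, which was lost under 18 of 38 alternatives, 8 of which left out a single library, and was -0.17 with in vitro young replicates 1 to 4 alone. Of 40 tested proteasome genes, 7 rose and 1 fell (17.5% and 2.5%), with a median of 0.11. Psmd4, a ubiquitin receptor of the regulatory particle, gave 716 to 916 CPM in AA and 524 to 676 CPM in in vitro young, without overlap, and rose by 0.45 ± 0.07 (edgeR adjusted p = 2.21e-05). Psmf1, a proteasome inhibitor, gave 667 to 961 CPM against 480 to 656 CPM and rose by 0.44 ± 0.07 (edgeR adjusted p = 5.25e-05). With detected genes as a covariate, 3 members of each list were higher, and with libraries summed by pattern, none.

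**Figure D3:**
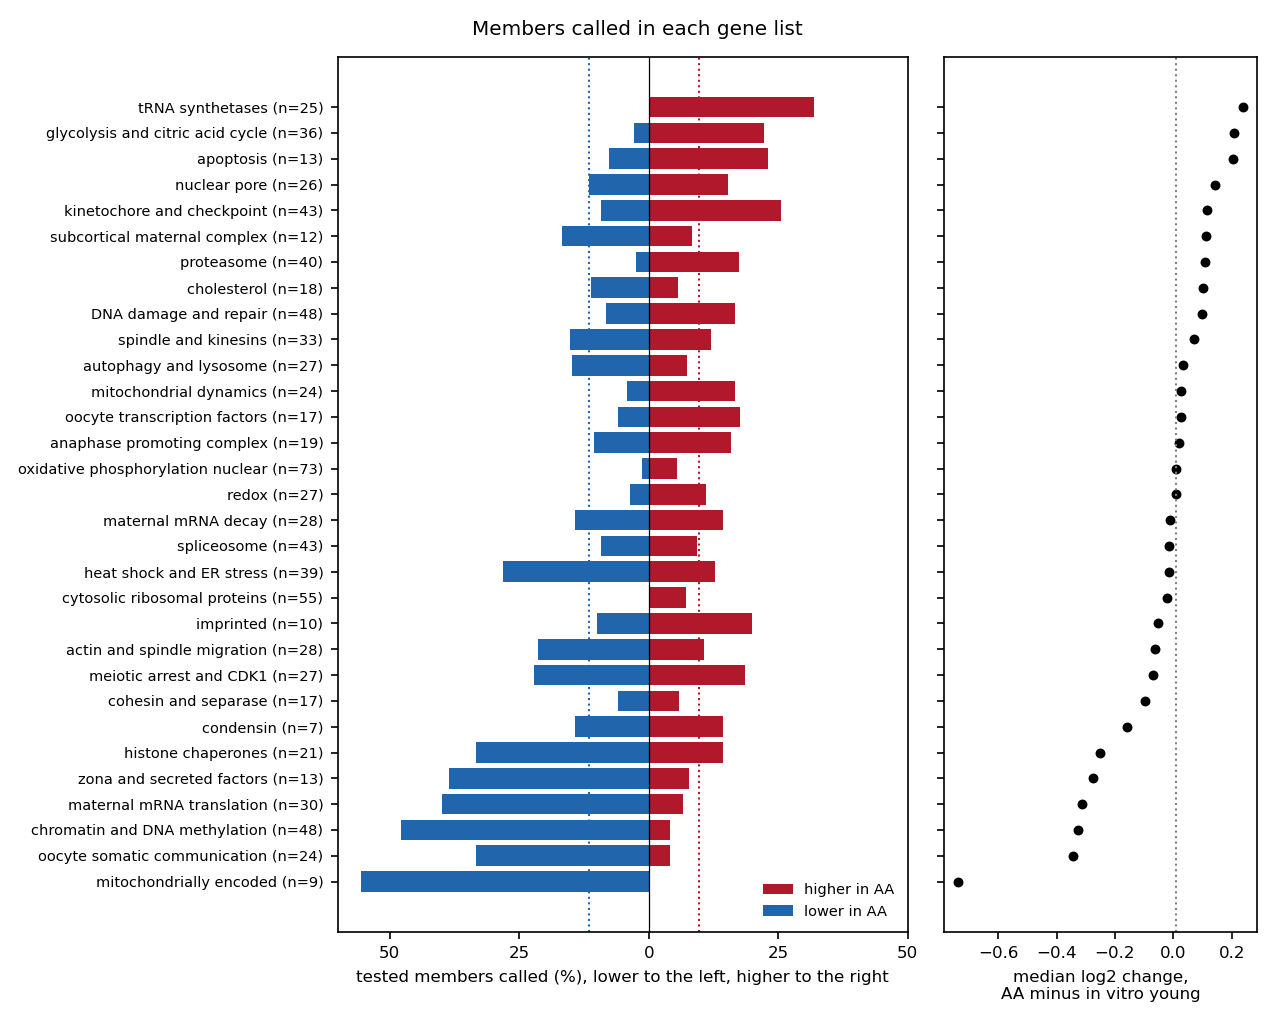
For each gene list other than the cell type markers (y axis, n tested members), the left panel gives the percent of tested members called lower (blue, to the left) and higher (red, to the right) in AA, with dotted lines at the values of all tested genes (11.6% and 9.67%), and the right panel the median log2 change. Mitochondrially encoded genes and chromatin genes have the largest shares lower, tRNA synthetases the largest share higher, among the lists drawn.

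Several lists held calls in both directions, to be read beside the 9.67% of all tested genes higher and 11.6% lower. Of 27 tested genes of meiotic arrest and the CDK1 switch, 5 rose and 6 fell (18.5% and 22.2%), with a median of -0.07. Wee2, the kinase that holds CDK1 inactive in the oocyte, gave 808, 1001 and 1129 CPM in AA and 595, 736 and 798 CPM in in vitro young. Its groups did not overlap and it rose by 0.45 ± 0.07 (edgeR adjusted p = 2.94e-05). Mastl, the kinase that restrains a phosphatase opposing CDK1, rose by 0.60 ± 0.10. Pde3a, the phosphodiesterase that breaks down cAMP at resumption, fell by 0.76 ± 0.13 from a median of 116 to 64.1 CPM, and Mapk3 fell by 0.77 ± 0.14.

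Histone chaperones gave 3 higher and 7 lower of 21 tested (14.3% and 33.3%), with a median of -0.25. Nasp, which carries histone H3 and linker histones, gave 149.2 to 217 CPM in AA and 246 to 316 CPM in in vitro young, with no overlap, and fell by 0.61 ± 0.08 (edgeR adjusted p = 3.47e-06). Asf1b, another carrier, rose by 0.34 ± 0.07. Heat shock and endoplasmic reticulum genes gave 5 higher and 11 lower of 39 (12.8% and 28.2%), with a median of -0.02. Chaperonin subunits rose (Cct5 by 0.44 ± 0.07, without overlap, and Cct8 by 0.46 ± 0.09), while Hsp90ab1, a cytosolic chaperone, fell by 0.49 ± 0.10 and Atf4, a stress transcription factor, by 1.07 ± 0.19. The 11 lower members of that list became 3 with in vitro young replicates 1 to 4 alone, 1 with the 3 AA libraries of the smaller pattern, and 1 with detected genes as a covariate.

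DNA damage and repair genes gave 8 higher and 4 lower of 48 (16.7% and 8.33%), with a median of 0.10. Brca1 fell by 0.82 ± 0.16 and Brca2, its partner in homologous recombination, by 0.41 ± 0.08. H2ax, the histone variant phosphorylated at breaks, rose by 0.62 ± 0.14, and Rad54l, a recombination motor, by 0.60 ± 0.16. None of the 12 was called with detected genes as a covariate. Spindle and kinesin genes gave 4 higher and 5 lower of 33 (12.1% and 15.2%), near the shares of all genes. Kif22, a chromosome-arm motor, rose by 0.43 ± 0.09 and Aurka, the spindle pole kinase, by 0.38 ± 0.08, while Cltc, clathrin heavy chain, fell by 0.74 ± 0.15 and Cdk5rap2, a centrosome protein, by 0.68 ± 0.17. None of these 5 was called lower with detected genes as a covariate, with in vitro young replicates 1 to 4 alone, with the 3 AA libraries of the smaller pattern or with libraries summed by pattern. Actin genes gave 3 higher and 6 lower of 28 (10.7% and 21.4%). The formin Diaph1 fell by 1.26 ± 0.20 and Wasf2, an activator of branched actin, by 0.76 ± 0.12, while Spire1, an actin nucleator of the oocyte, rose by 0.38 ± 0.11 and Capza1, a capping protein, by 0.76 ± 0.15.

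Nuclear pore genes gave 4 higher and 3 lower of 26 (15.4% and 11.5%), and Ranbp2, a large pore filament protein with SUMO ligase activity, fell by 1.48 ± 0.27 from a median of 28.6 to 8.93 CPM with overlapping ranges. Spliceosome genes gave 4 higher and 4 lower of 43 (9.3% each), about the shares of all genes, with Plrg1 rising by 0.49 ± 0.07. Messenger decay genes gave 4 higher and 4 lower of 28 (14.3% each). There Cnot8, a deadenylase, rose by 0.51 ± 0.09 without overlap, and Cnot6l, the main maternal deadenylase, fell by 0.59 ± 0.10. In the anaphase-promoting complex, 3 of 19 were higher, Anapc4 by 0.51 ± 0.10, and 2 lower, among them its inhibitor Fbxo5 by 0.37 ± 0.10. Of 12 tested genes of the subcortical maternal complex and its relatives, Nlrp4f rose by 0.74 ± 0.12 from a median of 1942 to 3272 CPM, while Padi6, needed for cytoplasmic lattices, was called lower at -0.55 ± 0.18 and Nlrp9c at -0.28 ± 0.09. The Padi6 call was lost under 15 of 38 alternatives, 9 of which left out a single library, and was -0.24 with detected genes as a covariate. The Nlrp9c call was lost under 10 of 38, among them those without in vitro young replicate 4 (-0.25), 5 (-0.23) or 6 (-0.26). Nlrp genes have close relatives, so their counts are uncertain.

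The remaining lists are given by their counts, beside 21.2% of all tested genes called. Of 73 tested nuclear-encoded genes of oxidative phosphorylation, 4 rose and 1 fell (5.48% and 1.37%), with a median of 0.01. Sdhd, a membrane anchor of succinate dehydrogenase, rose by 0.44 ± 0.10, and Atp5k, a subunit of ATP synthase, fell by 0.49 ± 0.15, a call lost under 9 of 38 alternatives and without in vitro young replicate 2 (-0.36). Cohesin and separase genes gave 1 higher and 1 lower of 17: Sgo2a, the protector of centromeric cohesin, rose by 0.51 ± 0.15 and Espl1, separase, fell by 0.77 ± 0.18. Redox genes gave 3 higher and 1 lower of 27, with Prdx2, a peroxiredoxin, rising by 0.31 ± 0.07. Cholesterol genes gave 1 higher and 2 lower of 18, with Srebf1 called lower at -0.84 ± 0.28, lost under 10 of 37 alternatives, among them those without in vitro young replicate 3 (-0.79) or 4 (-0.76). Autophagy and lysosome genes gave 2 higher and 4 lower of 27, with Rb1cc1 falling by 0.68 ± 0.15 and Atg4b rising by 0.52 ± 0.11. Mitochondrial dynamics genes gave 4 higher and 1 lower of 24, with the protease Oma1 rising by 0.62 ± 0.16 and the prohibitin Phb2 by 0.62 ± 0.18. Oocyte transcription factors gave 3 higher and 1 lower of 17, with Nfya, a subunit of the factor that binds CCAAT, rising by 0.67 ± 0.16 and Foxo3 falling by 0.49 ± 0.13. Apoptosis genes gave 3 higher and 1 lower of 13, with Casp8 rising by 0.71 ± 0.15, and imprinted genes gave 2 higher and 1 lower of 10, with Mest rising by 0.41 ± 0.08.

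Genes of the mitochondrial genome held a lower share of counts in AA. They made up 0.0765%, 0.118% and 0.177% of counts in AA (lowest, median, highest) and 0.131%, 0.207% and 0.322% in in vitro young. The ranges overlapped, and the means of 0.122% ± 0.0341 (SD, n = 12) and 0.216% ± 0.0581 (SD, n = 8) differed by -0.0938 percentage points (two-sided exact permutation p = 0.000302, where the smallest possible p is 7.94e-06). Of 9 tested mitochondrially encoded genes, 5 fell (55.6%, beside 11.6% of all tested genes) and none was called higher. The log2 change was below 0 in 8 of 9, with a median of -0.74. With libraries summed by pattern, none was called. mt-Rnr2, the large ribosomal RNA, gave 320, 402 and 686 CPM in AA and 534, 722 and 906 CPM in in vitro young, and fell by 0.74 ± 0.13 (edgeR adjusted p = 0.000234). mt-Nd5, a subunit of complex I, gave 14.1 to 56.5 CPM against 45.2 to 99.7 CPM and fell by 1.00 ± 0.20 (edgeR adjusted p = 0.00044). mt-Rnr1, the small ribosomal RNA, chosen after its values were seen, was the member without overlap, with 111 to 185 CPM in AA and 196 to 766 CPM in in vitro young. In bulk RNA of 1 oocyte, less RNA per mitochondrion and fewer mitochondria cannot be told apart. Depth and library numbers also moved with the group, and their part in the lower share was not tested.

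**Figure D4:**
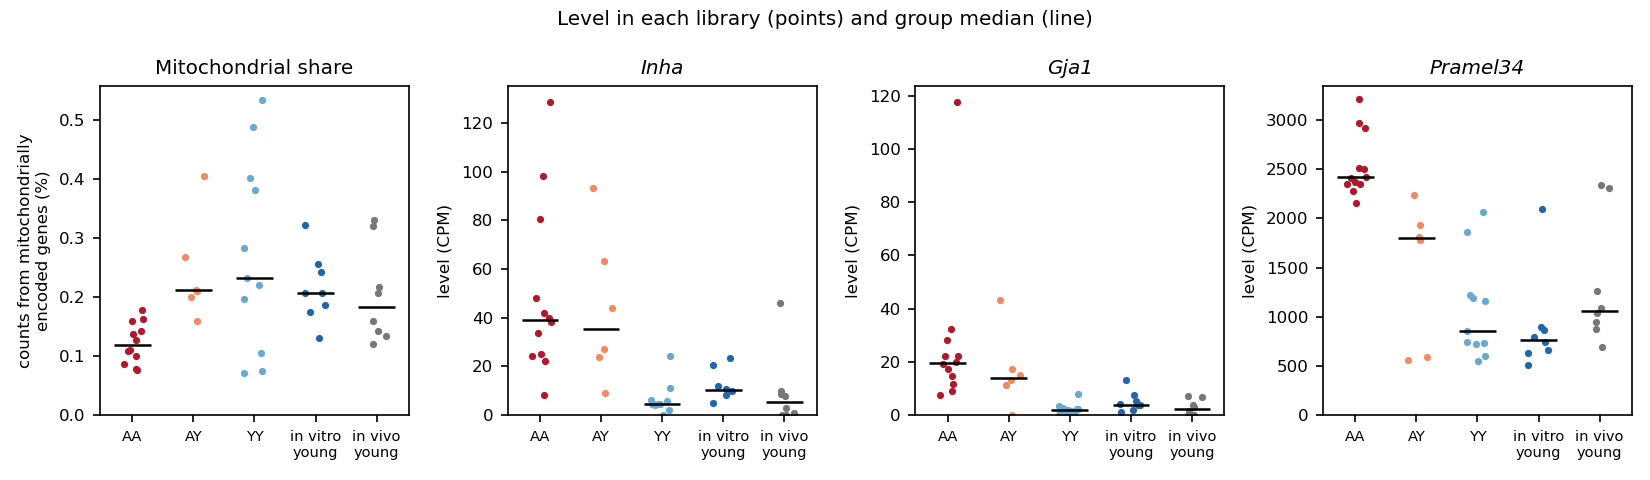
Points are libraries, lines are group medians, and the x axis gives the 5 groups; the first panel shows the percent of counts from mitochondrially encoded genes, the others the level in CPM of Inha, Gja1 and Pramel34. The AA share lies at 0.0765% to 0.177%, Inha and Gja1 have their highest medians in AA and AY, and Pramel34 is high in every AA library and in 1 in vitro young library.

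Granulosa and cumulus cells adhere to oocytes, and some of their transcripts were higher in AA. Of 19 markers, 4 passed the filter on low counts, and 3 of those rose, beside 9.67% of all tested genes. Inha and Gja1 passed mainly through their AA levels, so the count depends on the filter and does not test the list. Inha, which encodes inhibin alpha, gave 8.03, 39.2 and 128.8 CPM in AA and 4.99, 10.2 and 23.4 CPM in in vitro young. It lay above every in vitro young library in 10 of 12 AA libraries, and it rose by 1.95 ± 0.43 (edgeR adjusted p = 0.00345). Gja1, the gap junction protein of granulosa cells, gave 7.69, 19.5 and 118 CPM against 1.07, 3.95 and 13.1 CPM. It lay above every in vitro young library in 9 of 12 AA libraries and rose by 2.36 ± 0.53 (edgeR adjusted p = 0.00325). With libraries summed by pattern, Inha was called and Gja1 was not (2.11, edgeR adjusted p = 0.0956). Inha missed the threshold at a change of similar size with in vitro young replicates 1 to 4 alone (2.00, edgeR adjusted p = 0.0512), with replicates 5 to 8 alone (1.90, edgeR adjusted p = 0.0534) and with detected genes as a covariate (1.71, edgeR adjusted p = 0.133). Gja1 missed it with replicates 1 to 4 alone (1.97, edgeR adjusted p = 0.104) and with detected genes as a covariate (2.41, edgeR adjusted p = 0.0731). Serpine2, a protease inhibitor that oocyte libraries also held at 460 to 987 CPM in in vitro young, rose by 0.52 ± 0.16. Cyp19a1, the aromatase gene, did not pass the test, at 19.5 and 20.3 CPM. The whole list summed to 655 to 1292 CPM in AA and 538 to 1004 CPM in in vitro young before scaling, and without Serpine2 to 56.0 to 356 CPM and 44.4 to 83.8 CPM. Amh and Ptx3 were at 0 in all 20 libraries. Among the 15 markers too low to test, and chosen after their values were seen, Inhba held 4.61 to 31.5 CPM in AA and 0 to 4.29 CPM in in vitro young, while Gata4 held 2.54 to 9.46 CPM and 6.09 to 13.95 CPM. More adhering cells and more RNA per cell cannot be told apart here. These transcripts, like the lower sum of oocyte markers, moved with the group, and their part in the other differences was not tested.

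Markers of other cell types were at or near 0 apart from a few. Before scaling, the theca and stroma markers summed to 0 to 9.74 CPM in AA and 2.27 to 6.67 CPM in in vitro young, with 6 of 12 at 0 throughout. The endothelial and blood markers summed, likewise unscaled, to 62.9 to 133 CPM and 55.8 to 109 CPM. The immune markers summed, also unscaled, to 146 to 277.4 CPM and 123 to 214 CPM. Of these, Ighm (0.41 ± 0.13) and Ighg1 (0.73 ± 0.23) were called higher (Ighg1 not without in vitro young replicate 1, 2, 7 or 8, at 0.63 to 0.71), while Cd3e, Cd79a, C1qa, Lyz2, Adgre1 and Igkc were at 0 in all 20 libraries.

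A stretch of chromosome 5 (93782852 to 95633447, mm39) rich in Pramel genes, a family of leucine-rich repeat proteins expressed in oocytes, was high in AA. All 7 genes tested there were called higher, beside 9.67% of all tested genes. The stretch was drawn from Pramel34 to Pramel48, both called higher in these same data, so the count does not test the region. Pramel48 and Gm7919 could pass the filter on low counts only through AA. Pramel34 gave 2156, 2417 and 3212 CPM in AA and 513, 765 and 2091 CPM in in vitro young, a rise of 1.49 ± 0.21 (edgeR adjusted p = 7.01e-05). Pramel47 rose by 1.64 ± 0.22, AA792892 by 2.95 ± 0.67 and Pramel48 by 3.21 ± 0.75. Pramel48 had no counts in 7 of 8 in vitro young libraries and 136 CPM in replicate 1, against 131 to 216 CPM in AA. For all 7 genes replicate 1 was the highest in vitro young library. Without replicate 1 the log2 change was 1.78 for Pramel34, 2.00 for Pramel47 and 5.35 for AA792892, and every remaining in vitro young library was at 0 for Pramel48, so no fold is given. AA792892 and Pramel48 were not called with detected genes as a covariate (edgeR adjusted p = 0.0659 and 0.0857), with in vitro young replicates 1 to 4 alone (0.076 and 0.0702), with the 3 AA libraries of the smaller pattern (0.212 and 0.234) or with libraries summed by pattern (0.609 and 0.614). Pramel48 is 1 of the 11 genes that define the patterns, so its results by pattern are not independent of that definition. Members of the Pramel family are close copies of each other, so the counts of each are uncertain. In the other groups Pramel48 was above 20 CPM in 8 of 11 YY, 4 of 6 AY and 2 of 8 in vivo young libraries.

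An all-or-nothing gene and another gene gave large values elsewhere. Rhbdf1, an inactive rhomboid protein, is 1 of the 11 genes that define the patterns, so its split between them follows from that definition. Rhbdf1 was at 0 to 1.58 CPM in the 9 AA libraries of the larger pattern and at 29.0 to 78.0 CPM in the 3 of the smaller. In vitro young held 71.1 to 143 CPM. Its fitted change of -2.65 ± 0.68 was lost under 7 of 38 alternatives, among them DESeq2 and the replicate block. Tnc, an extracellular matrix glycoprotein that is not among the all-or-nothing genes, gave 0, 3.22 and 24.1 CPM against 2.01, 28.4 and 60.2 CPM. Its change was -2.30 ± 0.54. That call was lost under 5 of 34 alternatives.

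YY, the reconstituted young group, lay near in vitro young for some genes and near AA for others; the genes given here were picked once their values were known. These comparisons share AA or in vitro young libraries with the one above, so their values are set side by side and no agreement between them is counted. In a fit of all 45 libraries, Dnmt1 had a median of 544 CPM in YY, and its log2 change was -0.73 ± 0.13 for AA minus YY (edgeR adjusted p = 3.59e-05) and -0.29 ± 0.14 for YY minus in vitro young (edgeR adjusted p = 0.251). Ep300 gave -2.12 ± 0.30 and -0.15 ± 0.27, and Jag1 gave -0.75 ± 0.11 and 0.03 ± 0.12. Cdc34b gave 1.22 ± 0.14 and 0.38 ± 0.16, and Ncapg gave 1.33 ± 0.14 and -0.46 ± 0.15. For these 5 genes the AA minus YY value was called and the YY minus in vitro young value was not.

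For other genes lower in AA, the called difference lay between YY and in vitro young. Gdf9 stood at a median of 5082 CPM in YY, with 0.11 ± 0.10 for AA minus YY (edgeR adjusted p = 0.454) and -0.59 ± 0.11 for YY minus in vitro young (edgeR adjusted p = 0.000725). Ranbp2 gave 0.42 ± 0.30 and -1.89 ± 0.28, Cenpf gave 0.16 ± 0.13 and -0.96 ± 0.14, and Padi6 gave 0.29 ± 0.16 and -0.83 ± 0.17. Cd9, Golgb1 and Topbp1 gave 0.13 ± 0.15, -0.26 ± 0.14 and -0.37 ± 0.19 for AA minus YY, and -0.79 ± 0.16, -0.75 ± 0.14 and -0.88 ± 0.19 for YY minus in vitro young. For these 7 genes the AA minus YY value was not called and the YY minus in vitro young value was, and a missed threshold does not show that AA and YY are alike. Over all genes, AA against YY called 26% of 9162 tested genes, and YY against in vitro young 4.13%.

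The AY oocytes, aged but in young somatic cells, had median levels of 402 CPM for Dnmt1, 11.3 CPM for Ep300, 289 CPM for Cdc34b, 416 CPM for Ncapg and 207 CPM for Iars. AA minus AY was -0.22 ± 0.15 for Dnmt1 and -0.02 ± 0.16 for Cdc34b, neither called. It was 0.73 ± 0.17 for Ncapg (edgeR adjusted p = 0.00692) and 0.79 ± 0.20 for Iars (edgeR adjusted p = 0.0121), both called.

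Lower genes had longer transcripts. By the longest annotated transcript, the median length was 4672 bases for genes lower in AA, 2860 for genes higher and 2954 for genes not called. When tested genes were ranked by length into 5 equal bins, in the longest bin (from 5083 bases up) 25.7% were lower and 6.05% higher, and the median log2 change was -0.18. In the shortest bin, 4.47% were lower and 8.51% higher. The median log2 deviation of the longest bin minus that of the shortest, per library, was -0.39, -0.22 and -0.001 (lowest, median, highest) in AA and -0.13, 0.03 and 0.09 in in vitro young. Its median was -0.09 in YY and -0.23 in AY. The chromatin list had a median transcript of 4709 bases and the communication list 5886 bases, and the part of transcript length in their falls was not tested beyond the correction, after which 17 and 6 members fell. Over all genes the correction gave 798 higher and 743 lower.

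**Figure D5:**
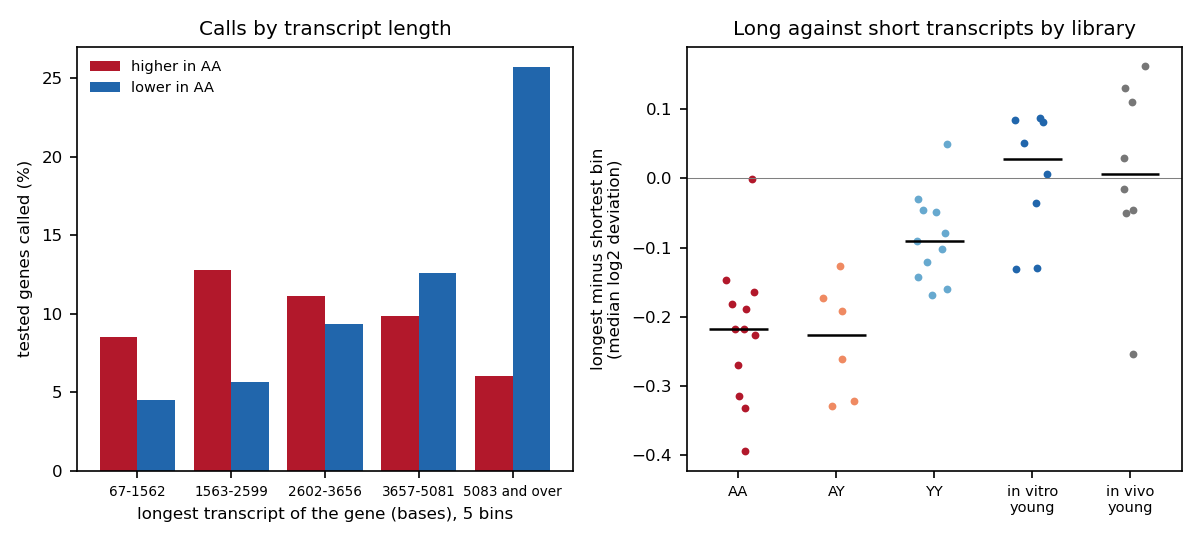
Left, the percent of tested genes called higher (red) or lower (blue) in AA in each of 5 bins of transcript length (bases); right, for each library, the median log2 deviation of the longest bin minus that of the shortest, with group medians as lines. The share of genes lower in AA climbs from 4.47% in the shortest bin to 25.7% in the longest.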

How the data were processed

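RNA of single mouse oocytes was amplified with a low-input kit, per the labels' protocols, and read counts per gene were deposited by the authors as whole numbers, not normalized. STAR 2.7.8a, HTSeq 0.11.0 and build mm39 are named in the submitters' processing notes. The strand setting and the treatment of reads shared by near-identical genes are not given in the sources used here. There are no molecular identifiers.

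AA (12) and in vitro young (8) libraries were fitted together with edgeR 4.0.16 in R 4.3.3 (TMM scaling, filterByExpr with minimum count 10 and total 15, robust quasi-likelihood test, Benjamini-Hochberg adjustment over 7943 genes of 55357, calls under 0.05). Standard errors derive from the F statistic. Levels are CPM, TMM-scaled over the 45 libraries, unless called unscaled. On simulated counts for this comparison, over 7943 genes, 53.6% of 1.5-fold, 91% of 2-fold and 100% of 4-fold changes were recovered, with 6 false calls. The simulated libraries were independent, without structure by pattern, animal or batch, so these false calls do not cover errors from such structure. Replicates were compared for repeated deposits; the closest pair within a group had a chi-square per df of 1.985.

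Members and 36 gene lists (1236 entries, 1200 matched) were chosen with earlier results of these data known. Named genes were the 12 with the smallest p per direction among called genes with a log2 change of at least 1, a mean of at least 10 CPM and 5 or more counts in 0.75 of the higher group's libraries, the 3 with the largest change, and up to 2 called members per list and direction; predicted gene models were left out, and names outside this rule are marked. Some genes are not reported here. Promoter windows were RefSeq's, on GRCm38.p6, matched by symbol for 5879 of 7943 tested genes; transcript lengths were from GENCODE, matched for 99.9%. Alternatives included DESeq2 1.42.0 and limma 3.58.1. The share test used scipy 1.17.1.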

Additional observations from a re-analysis of the deposited data

Results flagged for a closer look

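In 13 named genes, 1 in vitro young library lay apart from the other 7 by Dixon's criterion (135 groups tested, critical ratio 0.526). Chance alone flags about 1 in 20 groups. Replicate 1 was highest for the chromosome 5 genes Pramel34 (2091 CPM, next 893.8), Pramel47 (185.5, next 71.89), AA792892 (515.0, next 16.84) and Pramel48 (135.7, next 0). Replicate 2 was highest for D6Ertd474e (427.7 CPM) and lowest for Capza1 (21.13), Mdh2 (234.5), Nsdhl (77.48) and Glrx (978.1). Replicate 3 was lowest for Birc6 (11.81 CPM). Replicate 4 was highest for Pik3r4 (182.7 CPM), replicate 6 for Smc2 (72.3) and replicate 8 for Sucla2 (249.6). The critical ratios used here did not cover a group of 12, so AA was not tested.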

How the results depend on the processing

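Counts of genes higher and lower in AA kept within 1.5 times of 768 and 919 with RLE or upper-quartile scaling, DESeq2 (845 and 974), limma voom, other filters on low counts, the fit of 45 libraries, the GC and length correction and each library left out (586 to 797 higher, 749 to 941 lower). Upper-quartile scaling made 41.6% of calls higher, no filter 35.1%, and the GC and length correction 51.8%, against 45.5%. The replicate block gave 531 and 690; same-numbered libraries correlated at -0.078 to 0.029, so the numbers were not taken as a pairing. Higher and lower counts were 210 and 296 with genes detected as a covariate, 482 and 547 with pattern as a random block, 5 and 9 with libraries summed by pattern, 456 and 577 with in vitro young S162 to S165 alone, 471 and 598 with S128 to S149 alone, and 285 and 382 with the 3 AA libraries of the smaller pattern (chosen after seeing the data). Fewer samples enter the last 4. Of distinct list members, 111 were higher and 127 lower; these became 39 and 46 with genes detected as a covariate, 1 and 3 with libraries summed, 50 and 52 with the 3 AA libraries, 70 higher with S162 to S165, 74 lower with S128 to S149 and 79 lower with the random block. Fgf8 reversed to -0.039 with genes detected as a covariate; the cause was not tested. Thinning all libraries to 503354 counts (chosen after seeing the data) gave 516 and 656 of 6386 tested genes, 1091 of them called in the same direction at full depth. The mitochondrial share stayed lower in AA under every alternative run. Among named genes, 20 lost their call without some single library, 68 with genes detected as a covariate and 119 with libraries summed by pattern. At this depth and number of libraries, 53.6% of simulated 1.5-fold changes were recovered over all tested genes, and recovery was not split by level.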

Other observations

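Processed pseudogenes were seldom lower in AA. Of 490 tested, 9.8% were higher and 3.27% lower, with a median log2 change of 0.09, beside 9.76% and 12.3% of 7050 protein-coding genes. In the shortest bin of transcript length, 8.51% of all tested genes were higher and 4.47% lower. The part of transcript length in the pseudogene shares was not tested. Long non-coding RNAs gave 6.38% higher and 8.51% lower of 282. Reads of pseudogenes and their parent genes can be exchanged in counting, so single pseudogenes are uncertain.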
